A study of Mus musculus with 7 samples.

Results

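The 10 genes described here build or support the desmosome: the desmosomal cadherins Dsg1a, Dsg2, Dsg3, Dsc2 and Dsc3, the plaque genes Dsp, Pkp1 and Pkp3, and the associated genes Perp and Sfn. They were picked out by symbol among the 50600 genes in the tables, and the choice was made with earlier results of these data known. All 10 were found, and 9 of them passed the filter on low counts in the comparison of all tumours with glands, Dsg1a being the exception.

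The libraries came from 4 mammary tumours of mice carrying an ECD transgene and from 3 control mammary glands. By their labelled histology, tumours 1a and 1b were adenosquamous carcinomas, tumour 3 was a spindle cell carcinoma and tumour 4 was a papillary carcinoma. Each tumour sample was a piece from the centre of the tumour, and the glands were labelled as control tissue with no further genotype. The labels give no strain, age or transgene promoter, nor do they state whether tumours 1a and 1b, which share a number, came from 1 animal. The comparison set by the title and design is that of ECD tumours with normal glands.

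Total counts were 5420604 to 28638206 in the tumours and 5148455 to 35631305 in the glands. The papillary tumour and glands 2 and 3 were the only libraries above 20000000, so depth and papillary histology cannot be told apart among the tumours. Genes of mitochondrial DNA took 18.3% to 32.6% of tumour counts and 48.4% to 64.8% of gland counts. The summed level of 6 fat cell markers was 7.0 to 120 CPM (counts scaled to a library of 1000000) in tumours and 2650 to 4530 CPM in glands, and that of 6 skeletal muscle markers was 0.836 to 189 CPM in tumours and 19.5 to 24800 CPM in glands. The mean log2 CPM of 12 epithelial markers was 4.07, 5.83, 5.54 and 6.29 in tumours 1a, 1b, spindle cell and papillary, against 3.65 to 3.98 in glands. In such bulk tissue, fewer cells of a type and less RNA per cell cannot be told apart. The sums of fibroblast markers (185 to 4420 CPM in tumours and 366 to 1140 CPM in glands), leukocyte markers (22.2 to 305 CPM and 36.1 to 341 CPM) and endothelial markers (32.5 to 211 CPM and 196 to 294 CPM) overlapped between tumours and glands, and their part in the results was not tested. As a check of the squamous part of the label, the 10 markers of cornified keratinocytes summed to 26.0 and 31.4 CPM in the adenosquamous tumours, 32.1 CPM in the spindle cell tumour and 1.36 CPM in the papillary tumour, against 2.33 to 16.3 CPM in glands. The sum of the spindle cell tumour was mostly 1 marker, Calml3, at 30.9 CPM, which averaged 15.3 CPM in the adenosquamous tumours. In the spindle cell tumour 5 of the 10 markers had no count, against 3 in tumour 1a and 2 in tumour 1b. The mean log2 CPM of the 10 markers was -0.16 and 0.5 in tumours 1a and 1b. It was -1.66 in the spindle cell tumour, within the range of the glands (-2.26 to -1.51). Lor and Lce1a1 had no count in any library, and Krt1 had 5 counts in tumour 1b and none in 1a. The epithelial marker level of the spindle cell tumour, like that of the other tumours, was above every gland. Its 6 mesenchymal regulators summed to 35.2 CPM, against 30.8 CPM in the papillary tumour, 206 and 229 CPM in tumours 1a and 1b and 317 to 373 CPM in glands. Of these, Zeb1 was below every gland (95 to 178 CPM) in all 4 tumours, at 56.9, 15.6, 7.88 and 3.62 CPM in 1a, 1b, spindle cell and papillary. Snai1 (0.591 CPM) and Snai2 (5.52 CPM) of the spindle cell tumour were within the range of the glands.

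Desmosomes are buttons of adhesion that tie neighbouring epithelial cells together and anchor their keratin filaments. Desmogleins and desmocollins, which are cadherins, span the membrane and meet those of the next cell. Inside the cell, plakoglobin and the plakophilins bind the cadherin tails, and desmoplakin links this plaque to keratin. Dsg2 and Dsc2 are the widely used cadherins, including in simple epithelia such as the mammary duct, whereas Dsg1, Dsg3, Dsc3 and Pkp1 are mostly genes of stratified and basal epithelia. Perp, a tetraspan membrane protein and target of p63, is needed for stable desmosomes in mouse skin, and Sfn encodes 14-3-3 sigma, an epithelial member of the 14-3-3 family and a target of p53 known for holding cells in G2.

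Promoter sequences are shown for Dsp, which was high in the adenosquamous and spindle cell tumours and low in the papillary one, and for Sfn, which was above the glands in all 4 tumours. These 2 of the 10 genes matched the RefSeq promoter table (GRCm38.p6). Each line gives the 250 bases before the start of the gene, read 5′ to 3′ on the gene's strand, at chr13:38151044-38151293 (plus strand) for Dsp and at chr4:133602169-133602418 (minus strand) for Sfn. Capitals mark matches to any of 6 motifs, searched on both strands.
Dsp: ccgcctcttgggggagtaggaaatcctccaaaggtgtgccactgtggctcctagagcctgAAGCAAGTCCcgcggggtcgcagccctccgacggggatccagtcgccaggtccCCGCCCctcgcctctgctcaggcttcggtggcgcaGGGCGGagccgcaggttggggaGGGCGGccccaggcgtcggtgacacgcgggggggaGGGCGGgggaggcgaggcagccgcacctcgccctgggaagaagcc
Sfn: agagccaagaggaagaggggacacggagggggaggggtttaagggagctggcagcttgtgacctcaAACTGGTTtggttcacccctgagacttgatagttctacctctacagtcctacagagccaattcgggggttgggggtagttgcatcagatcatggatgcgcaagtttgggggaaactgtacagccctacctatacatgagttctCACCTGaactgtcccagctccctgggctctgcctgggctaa

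The Dsp window was 72.4% G or C and held 4 GC boxes (GGGCGG), the first of them on the opposite strand. It also held 1 half-site of the p53 family, matched by a sequence pattern (here AAGCAAGTCC). The Sfn window was 54.4% G or C and held 1 grainyhead motif (AACNGGTT) and 1 E-box of the Snai type (CAGGTG); the E-box lay on the opposite strand. The GC box was found in 33.0% of 32536 promoter windows of the same length, the half-site in 7.12%, the grainyhead motif in 1.79% and the E-box in 17.3%. Neither window held the AP-1 motif TGANTCA (6.73% of windows) or the TATA box TATAAA (12.3%). The motifs listed did not overlap each other in either window.

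Across all 4 tumours and 3 glands, Pkp3 and Sfn rose and none of the 9 genes tested fell. The other 7 genes tested did not pass, although all of them had a positive log2 fold change. In edgeR's quasi-likelihood test with Benjamini-Hochberg adjustment over 14149 genes, 2 of the 9 genes tested were called higher (adjusted p under 0.05), where 3.9% of all genes tested were. At unadjusted p under 0.05, 7 of the 9 were higher, as were 15.8% of all genes tested. Their median log2 fold change was 3.14, against 0.12 over all genes tested. Pkp3 and Sfn, 2 of the 9, had every tumour above every gland. Dsg3 did so as counted, but its 0.174 CPM in the papillary tumour is less than the 1.3 CPM that a count of 0 allows in gland 1 (exact 95% upper limit), so that pair cannot be placed. As counted, 16.3% of all genes tested had this order. Dsg3 and Sfn reached the filter's limit of 1.25 CPM, without TMM scaling, in 0 and 1 of the glands and passed the filter through the tumours. Pkp1 and Dsc3 reached it in 2 glands where 3 libraries were needed, so the counts and the median are descriptions only. The count of genes called higher was 7 with DESeq2 or 1 fit of the 4 groups and 1 with limma-voom. In edgeR it was 7 without the papillary tumour and 1 without tumour 1b, gland 1 or gland 2. Without gland 3 it was 0, with 6 higher at unadjusted p under 0.05, as were 11% of all genes tested in that fit. The shares of all genes called higher in these other fits are not given. Calls over all genes also changed in number with the fit, as the last section shows, so these counts are descriptions only.

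Against the glands, the 2 adenosquamous tumours taken alone had 7 of the 10 genes higher, namely Dsg1a, Dsg3, Dsp, Pkp1, Pkp3, Perp and Sfn, and none lower. Over all 14708 genes of this comparison, 5.02% were called higher. The median log2 fold change of the 10 genes was 3.67, against -0.04 over all genes tested. Dsg1a, Dsg3 and Sfn passed the filter here only through the tumours, with 0, 0 and 1 gland at its limit, so a gene of their kind had to differ to be tested at all, and the count of 7 and the median are descriptions. Dsp, Pkp1, Pkp3 and Perp passed it on the glands alone. In this fit 8 of the 10 genes were higher at unadjusted p under 0.05, as were 14.7% of all genes tested. In edgeR 0 of the 10 genes passed without adenosquamous tumour 1b (8 higher at unadjusted p under 0.05, as were 9.17% of all genes), without control gland 3 (8, and 12.3% of all genes) or with depth class as a covariate (7, and 19.3% of all genes). The fit without tumour 1a leaves 1 adenosquamous library, and its calls are not given.

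**Figure D1:**
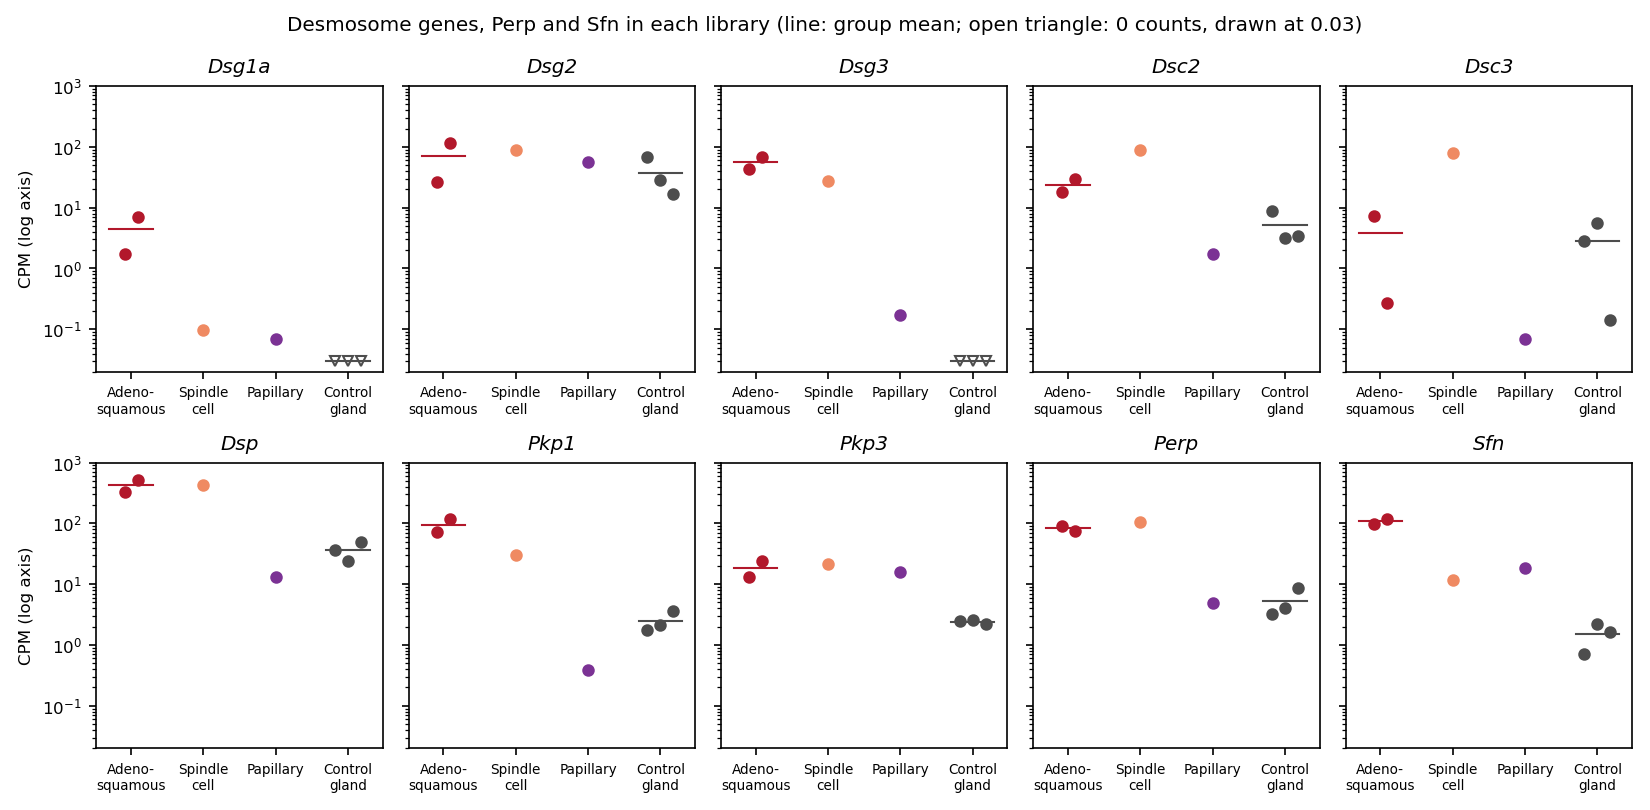
CPM of each gene (log axis) in every library, by group, with the group mean as a line and libraries of 0 counts as open triangles drawn at 0.03. Pkp3 and Sfn lay above the glands in all 4 tumours, whereas Dsp, Pkp1 and Dsc2 lay above the glands in the adenosquamous and spindle cell tumours and below them in the papillary tumour.

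Dsg3 (ENSMUSG00000056632), the desmoglein of basal layers of stratified epithelium, had 43.4 and 68.6 CPM in adenosquamous tumours 1a and 1b, 27.6 CPM in the spindle cell tumour and 0.174 CPM (5 counts) in the papillary tumour. It had no count in any of the 3 glands. The adenosquamous mean of 56.0 ± 17.8 CPM (SD, n = 2) was at least 1040-fold higher than the glands, taking 3 counts over the 3 glands as the limit of detection (0.0539 CPM), and the call passed (adjusted p = 0.0183, edgeR). The spindle cell tumour was at least 512-fold higher by the same limit. Over all 4 tumours, at least 648-fold higher on average, the test of Dsg3 did not pass (adjusted p = 0.0663, edgeR).

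Dsg1a (ENSMUSG00000069441), a desmoglein of upper layers of stratified epithelium, was a low gene found in the adenosquamous tumours. It had 1.70 CPM (20 counts) in tumour 1a and 7.07 CPM (52 counts) in tumour 1b, 1 count in the spindle cell tumour, 2 counts in the papillary tumour and none in the glands. The 2 adenosquamous tumours were at least 81.4-fold higher than the glands. The gene was tested here only because of its counts in these tumours, and it passed (adjusted p = 0.0433, edgeR), a call lost with limma-voom (adjusted p = 0.0542). In edgeR it was also lost without tumour 1a (adjusted p = 0.0997), tumour 1b (adjusted p = 0.216), gland 1 (adjusted p = 0.0647) or gland 3 (adjusted p = 0.0896), and with depth class as a covariate (adjusted p = 0.157). Its counts are uncertain, because 29.2% of the 75-base stretches of its transcripts also occur in other genes, most of them in Dsg1b, its near copy. Dsg1b was likewise highest in the adenosquamous tumours, with 2.38 and 7.62 CPM there, no count in the spindle cell and papillary tumours, and at most 1.06 CPM in the glands.

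Dsg2 (ENSMUSG00000044393), the desmoglein of simple epithelia and many other tissues, had overlapping groups. It had 26.8 and 116 CPM in tumours 1a and 1b, 89.4 CPM in the spindle cell tumour and 55.9 CPM in the papillary tumour, against 67.6, 28.1 and 16.7 CPM in glands 1, 2 and 3. Tumour 1a lay below gland 1 and gland 2. The log2 fold change was 0.96 over all tumours (SE 0.63, adjusted p = 0.346, edgeR) and 0.85 in the adenosquamous tumours (SE 0.80, adjusted p = 0.517, edgeR).

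The desmocollins were highest in the spindle cell tumour. Dsc2 (ENSMUSG00000024331), the widely used desmocollin, had 18.2 and 29.3 CPM in tumours 1a and 1b, 87.7 CPM in the spindle cell tumour and 1.74 CPM in the papillary tumour, against 8.84, 3.12 and 3.41 CPM in glands 1, 2 and 3. The papillary tumour was below every gland and the other tumours were above every gland. Neither the comparison over all tumours (log2 2.81, SE 1.16, adjusted p = 0.161, edgeR) nor that of the adenosquamous tumours (log2 2.21, SE 0.58, adjusted p = 0.0643, edgeR) passed.

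Dsc3 (ENSMUSG00000059898), the desmocollin of basal layers, varied more between the adenosquamous tumours than any other gene of the 10, with 7.41 CPM (87 counts) in tumour 1a and 0.272 CPM (2 counts) in tumour 1b. It had 79.6 CPM (808 counts) in the spindle cell tumour and 0.0697 CPM (2 counts) in the papillary tumour. The glands spread as widely, at 2.83, 5.55 and 0.142 CPM in glands 1, 2 and 3. Only the spindle cell tumour was far outside this range, and neither test passed (log2 2.93, SE 2.15, adjusted p = 0.397 over all tumours, and log2 0.39, SE 1.54, adjusted p = 0.888 for the adenosquamous tumours, edgeR). With limma-voom, or without the spindle cell tumour, the log2 fold change over all tumours was negative (-0.25 and -0.11).

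The 5 cadherin genes lie in 1 cluster on chromosome 18 (GRCm38): Dsc3 at 19960930 to 20002351 and Dsc2 at 20030633 to 20059554 on the minus strand, then Dsg1a at 20310811 to 20343350, Dsg3 at 20510274 to 20547459 and Dsg2 at 20558074 to 20604521 on the plus strand. Neighbours in the cluster did not all share a pattern. Dsc2 and Dsc3 were both highest in the spindle cell tumour, and Dsg1a and Dsg1b were both highest in the adenosquamous tumours. Dsg3 was without a count in glands in which Dsg2, the next gene, had 16.7 to 67.6 CPM. Dsg4, a desmoglein of hair and cornifying layers that lies between Dsg1a and Dsg3, had 11.7 CPM (86 counts) in tumour 1b and no count in the other 6 libraries, and Dsc1, the desmocollin of cornifying layers, had 10.1 CPM (74 counts) in tumour 1b, 3 counts in the spindle cell tumour and none elsewhere. Dsg4 and Dsc1 were singled out after their values were seen.

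Summed per length, in CPM per kilobase of exon, the 6 desmogleins Dsg1a, Dsg1b, Dsg1c, Dsg2, Dsg3 and Dsg4 reached 10.4 and 30.6 in tumours 1a and 1b, then 14.8 in the spindle cell carcinoma and 6.80 in the papillary one, against 8.44, 3.42 and 2.03 in glands 1, 2 and 3. The 3 desmocollins Dsc1, Dsc2 and Dsc3 on the same scale reached 4.82 and 7.59 in tumours 1a and 1b, then 31.4 in the spindle cell carcinoma and 0.343 in the papillary one, against 2.20, 1.62 and 0.673 in the glands. The spindle cell tumour was thus the only library with more desmocollin than desmoglein RNA, at a ratio of desmogleins to desmocollins of 0.471. That ratio was 2.16 and 4.03 in the adenosquamous tumours and 19.8 in the papillary tumour, against 2.11 to 3.84 in the glands.

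The share of Dsg3 differed between libraries. By length, it made up 65.7% of Dsg3 plus Dsg2 in tumour 1a (exact 95% interval 62.5 to 68.9), 41.1% in tumour 1b (38.4 to 43.8), 26.8% in the spindle cell tumour (24.2 to 29.5) and 0.368% in the papillary tumour (0.12 to 0.856). In the glands the share was 0, with upper limits of 2.26%, 0.488% and 1.23% in glands 1, 2 and 3. These intervals cover counting error only. For the desmocollins no such order was seen: Dsc3 made up 28.4% and 0.9% of Dsc3 plus Dsc2 in tumours 1a and 1b, then 47.0% in the spindle cell carcinoma and 3.76% in the papillary one, against 23.8%, 63.5% and 3.91% in the glands.

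**Figure D2:**
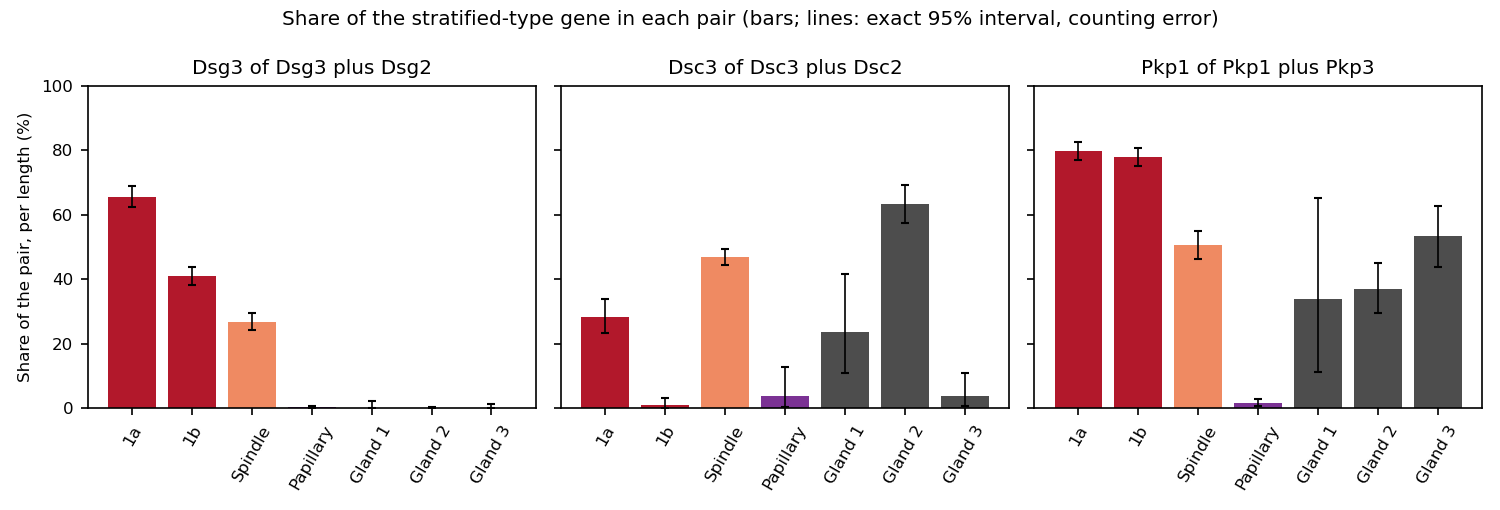
Share of the gene of stratified epithelium in each of 3 pairs, per length, in every library (bars, in percent), with exact 95% intervals for counting error as lines. The Dsg3 share was 26.8% to 65.7% in the adenosquamous and spindle cell tumours, 0.368% in the papillary tumour and 0 in the glands, whereas the Dsc3 share varied as widely among glands as among tumours.

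Dsp (ENSMUSG00000054889, chromosome 13, 38151294 to 38198577, GRCm38), which encodes the keratin linker desmoplakin, had 326 and 520 CPM in tumours 1a and 1b, 424 CPM in the spindle cell tumour and 13.3 CPM in the papillary tumour, against 36.1, 24.0 and 49.4 CPM in glands 1, 2 and 3. The adenosquamous and spindle cell tumours were above every gland, and the papillary tumour was below every gland. The adenosquamous tumours averaged 423 ± 137 CPM (SD, n = 2) and the glands 36.5 ± 12.7 CPM (SD, n = 3), an 11-fold difference that passed (log2 3.47, SE 0.44, adjusted p = 0.0189, edgeR). With the papillary tumour among the 4 tumours the difference was log2 3.14 with an SE of 1.05 and did not pass (adjusted p = 0.103, edgeR).

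Pkp1 (ENSMUSG00000026413, chromosome 1, 135871395 to 135919207), the plakophilin of stratified epithelium, which clusters desmosomal cadherins with desmoplakin, stood to the glands in each tumour as Dsp did. It had 71.5 and 117 CPM in tumours 1a and 1b, 30.7 CPM in the spindle cell tumour and 0.383 CPM in the papillary tumour, against 1.77, 2.11 and 3.56 CPM in glands 1, 2 and 3. In the adenosquamous tumours it was 35.0-fold higher than in the glands (94.0 ± 31.9 CPM, SD, n = 2, and 2.48 ± 0.948 CPM, SD, n = 3; log2 5.13, SE 0.42, adjusted p = 0.0170, edgeR). The papillary tumour had 6.47-fold less than the mean of the glands. Over all tumours the test did not pass (log2 4.42, SE 1.49, adjusted p = 0.106, edgeR).

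Pkp3 (ENSMUSG00000054065, chromosome 7, 141078218 to 141090510), a plakophilin found in both simple and stratified epithelia, rose over all tumours and lay above the glands in each tumour type. It had 12.9 and 23.7 CPM in tumours 1a and 1b, 21.6 CPM in the spindle cell tumour and 15.9 CPM in the papillary tumour, against 2.48, 2.58 and 2.23 CPM in glands 1, 2 and 3. All tumours lay well above all glands. The mean was 18.5 ± 4.96 CPM in tumours (SD, n = 4) and 2.43 ± 0.183 CPM in glands (SD, n = 3), and the rise of 7.61-fold passed (log2 2.93, SE 0.35, adjusted p = 0.00887, edgeR). In the adenosquamous tumours alone it rose 7.20-fold (log2 2.85, SE 0.41, adjusted p = 0.0208, edgeR). The call over all tumours was lost without control gland 3 (log2 2.86, adjusted p = 0.0522, edgeR) and when libraries were scaled to the 12 epithelial markers (log2 1.39, adjusted p = 0.212, edgeR), a scaling that shifts the median of all genes to -1.29.

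The plakophilin balance of the papillary tumour lay apart from that of every other library. Pkp1 made up 79.9% and 78.0% of Pkp1 plus Pkp3 per length in tumours 1a and 1b (exact 95% intervals 77.0 to 82.6 and 75.1 to 80.8), 50.6% in the spindle cell tumour (46.2 to 55.0) and 1.70% in the papillary tumour (0.851 to 3.03). The glands had 34.0%, 37.0% and 53.5%, on as few as 5 and 7 counts of Pkp1 and Pkp3 in gland 1. Against Pkp2, the plakophilin also used by simple epithelium and heart, the share of Pkp1 was 74.3% to 93.8% in the adenosquamous and spindle cell tumours and 2.19% in the papillary tumour, against 19.3% to 27.6% in the glands.

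Perp (ENSMUSG00000019851, chromosome 10, 18845020 to 18857073) had the highest level per length of the 10 genes in the spindle cell tumour, at 53.5 CPM per kilobase. It had 91.3 and 74.0 CPM in tumours 1a and 1b, 104 CPM in the spindle cell tumour and 4.88 CPM in the papillary tumour, against 3.18, 4.10 and 8.49 CPM in glands 1, 2 and 3. The papillary tumour lay within the range of the glands. The adenosquamous tumours averaged 82.7 ± 12.2 CPM (SD, n = 2) and the glands 5.26 ± 2.83 CPM (SD, n = 3), and the rise of 14.7-fold passed (log2 3.87, SE 0.45, adjusted p = 0.0183, edgeR). Over all tumours Perp did not pass (log2 3.67, SE 0.99, adjusted p = 0.0619, edgeR).

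Sfn (ENSMUSG00000047281, chromosome 4, 133600556 to 133602168) had the largest fold change among the genes with counts in every gland. It had 98.3 and 118 CPM in tumours 1a and 1b, 11.6 CPM in the spindle cell tumour and 18.4 CPM in the papillary tumour, against 0.707, 2.21 and 1.66 CPM in glands 1, 2 and 3. All tumours were above all glands, with the adenosquamous pair above the spindle cell and papillary tumours. Over all tumours the rise was 37.2-fold (61.7 ± 54.6 CPM in tumours, SD, n = 4, and 1.52 ± 0.759 CPM in glands, SD, n = 3; log2 5.22, SE 1.04, adjusted p = 0.0276, edgeR), and in the adenosquamous tumours it was 61.6-fold (108 ± 14.3 CPM, SD, n = 2; log2 5.95, SE 0.42, adjusted p = 0.0170, edgeR). The call over all tumours was lost without tumour 1b (adjusted p = 0.0585, edgeR), without gland 1, 2 or 3 (adjusted p = 0.101, 0.0797 and 0.119, edgeR), with limma-voom (log2 4.37, adjusted p = 0.107) and with depth as a covariate (log2 4.57, adjusted p = 0.0687, edgeR). Of its transcript, 7.41% of 75-base stretches also occur elsewhere, most of them in the gene model Gm7850.

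**Figure D3:**
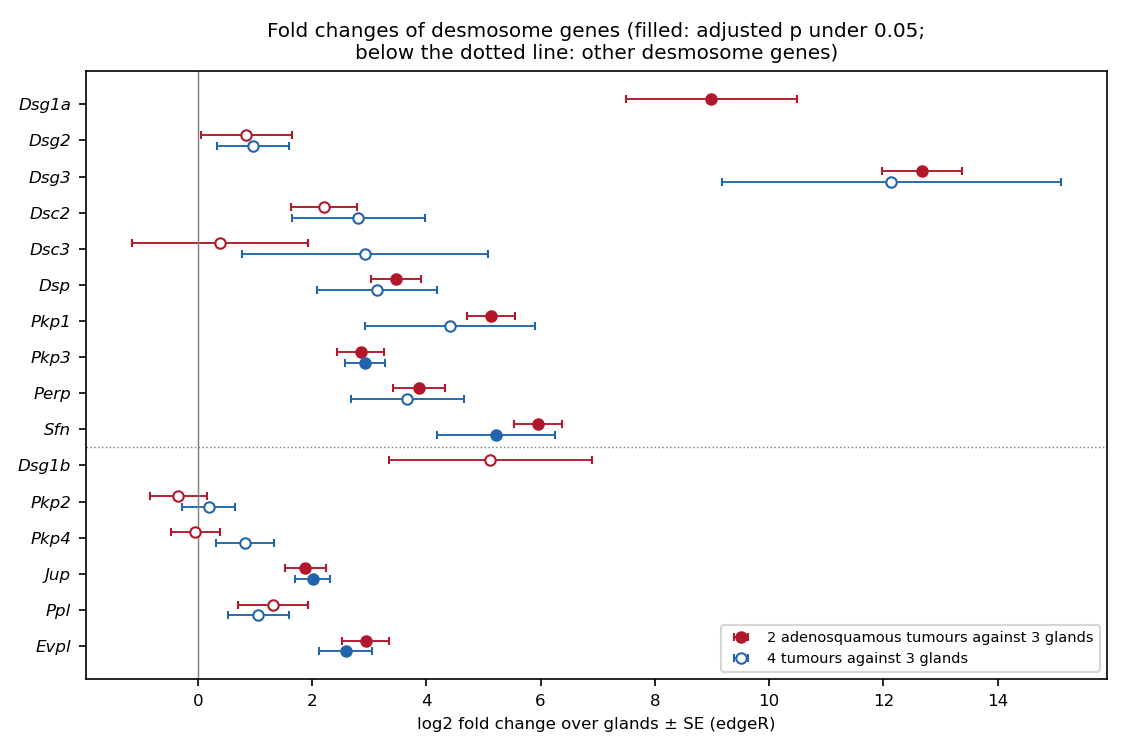
Log2 fold changes over glands with SE from edgeR for the 2 adenosquamous tumours (red) and all 4 tumours (blue), filled where adjusted p was under 0.05. In the adenosquamous comparison 7 of the 10 genes are filled, and in that of all tumours Pkp3 and Sfn are. Jup and Evpl, below the dotted line with other desmosome genes, are filled in both. The fitted values of Dsg3 and Dsg1a rest on glands with no count and are no measure of size.

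Per length, the order of the genes differed between tissues. In the adenosquamous tumours the highest were Sfn (67.2 CPM per kilobase on average), Dsp (43.8) and Perp (42.4), then Pkp1 (18.7), Dsg2 (8.66), Dsg3 (8.02), Pkp3 (5.06), Dsc2 (4.5), Dsg1a (0.772) and Dsc3 (0.71). Dsp and Perp overlapped between the 2 adenosquamous libraries, as did Dsg2, Dsg3, Pkp3 and Dsc2. In the spindle cell tumour Perp (53.5) and Dsp (43.9) led, followed by Dsc2 (16.6), Dsc3 (14.7) and Dsg2 (10.8). In the papillary tumour Sfn (11.4), Dsg2 (6.76) and Pkp3 (4.40) led, and Perp (2.5) and Dsp (1.37) were low. In the glands Dsg2 (4.53), Dsp (3.78) and Perp (2.69) were highest, with overlapping ranges. The 10 genes summed to 174 and 226 CPM per kilobase in tumours 1a and 1b, then 163 in the spindle cell carcinoma and 26.9 in the papillary one, against 17.2, 12.1 and 14.5 in the glands.

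The spindle cell and papillary tumours are single libraries, so their differences from the glands carry no test. In the spindle cell tumour all 9 genes that passed the filter lay above the range of the glands, as did 36.3% of all genes tested, and 8 were at least 2 higher on the log2 CPM scale, where 7.44% of all genes tested were. The exception, Dsg2, was 1.49 higher. The largest differences from the mean of glands with counts were those of Dsc3 (5.60), Perp (4.41) and Dsc2 (4.23). The median was 3.63, against 0.10 over all genes tested. Dsg3 and Sfn reached the filter's limit in 0 and 1 of the glands and passed it through the tumours, this one among them. Pkp1 and Dsc3 reached it in 2 glands where 3 libraries were needed. The counts and the median of this tumour are therefore descriptions only.

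In the papillary tumour 2 of the 9 genes, Sfn (3.62) and Pkp3 (2.65), were at least 2 higher than the mean of the glands on the log2 CPM scale, where 9.94% of all genes tested were. The genes Dsc3 (-3.09) and Pkp1 (-2.30), 2 of the 9, were at least 2 lower, where 13.1% of all genes tested were. Dsc3 had 2 counts in the papillary tumour and 3 in gland 3, so these libraries cannot be placed apart for it. As counted, Dsc2 (-1.33), Dsp (-1.39) and Pkp1 were below every gland, as 33.8% of all genes tested were. Perp (0.02) and Dsg2 (0.82) were within the range of the glands. The median was 0.02, against 0.09 over all genes tested. Dsg3, Dsc2, Dsp, Pkp1 and Perp, 5 of 9, were higher in the adenosquamous and spindle cell tumours than in the papillary tumour and every gland. This pattern was defined after the values were seen and was met by 6.74% of all genes tested. Dsg3 was tested only through the tumours, with 3 tumours and 0 glands at the filter's limit, so the count of 5 is a description only. Sfn also passed the filter through the tumours, with 1 gland at its limit. The other counts and the median of the papillary tumour are descriptions too.

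The test of the adenosquamous tumours against the spindle cell and papillary tumours asked whether tumour types themselves differed. It called 0 of the 10 genes higher and 0 lower in edgeR, as it did 0% of 14101 genes tested (2285 genes at unadjusted p under 0.05). Of the 10 genes, Dsg1a and Sfn were higher at unadjusted p under 0.05 in edgeR, as were 11.2% of all genes tested. Sfn averaged 108 ± 14.3 CPM in the adenosquamous tumours and 15 ± 4.79 CPM in the other tumours (SD, n = 2 each), a 7.25-fold difference (log2 2.86, SE 0.40, adjusted p = 0.126, edgeR). Dsg1a averaged 4.39 ± 3.8 CPM and 0.0841 ± 0.0204 CPM in the same groups (log2 5.64, SE 1.10, adjusted p = 0.143, edgeR). DESeq2 called 2 of the 10 genes higher here and limma-voom 0. The number of all genes passing with DESeq2 is given in the last section. For Dsp the spindle cell and papillary tumours averaged 219 ± 291 CPM (SD, n = 2), against which the adenosquamous tumours differed by log2 1.00 (SE 1.46, adjusted p = 0.786, edgeR).

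Within the shallower libraries, of under 20000000 counts, which held 3 tumours and gland 1, 9 of the 10 genes had a higher mean log2 CPM in tumours, with a median difference of 3.52. Dsg2 was the exception (-0.05). Within the deeper libraries, of over 20000000 counts, which held the papillary tumour and glands 2 and 3, 5 of the 10 had a positive difference and the median was 0.19. Pkp3 differed by 2.86 and 2.67 in the shallower and deeper class, and Sfn by 5.96 and 3.18. Dsg1a and Dsg3 were positive in both classes against glands without a count, with 2 and 5 counts in the papillary tumour. The shares and medians over all genes in each class are not given, and the shallower class held 1 gland. The counts and medians are therefore descriptions only.

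Of the 10 other desmosome genes listed, 5 were tested over all tumours, and Jup and Evpl rose while 3 did not pass. Jup (plakoglobin, which binds cadherin tails in desmosomes and adherens junctions) had 75.5, 147, 115 and 127 CPM in tumours 1a, 1b, spindle cell and papillary, against 26.2, 26.5 and 33.4 CPM in the glands (log2 2.01, SE 0.30, adjusted p = 0.013, edgeR). Evpl (envoplakin, a plakin of the cornified envelope) had 14.3, 21.9, 7.88 and 10.5 CPM in the same tumours, against 2.83, 2.14 and 1.94 CPM in the glands (log2 2.59, SE 0.46, adjusted p = 0.0198, edgeR). Both, like Pkp3, were above every gland in all 4 tumours. In the adenosquamous comparison 6 of these genes were tested and Jup (log2 1.88, adjusted p = 0.0319, edgeR) and Evpl (log2 2.94, adjusted p = 0.0201, edgeR) rose again, with 4 not passing. The plakophilins Pkp2 (8.16 to 18.2 CPM in tumours and 4.95 to 15.6 CPM in glands) and Pkp4 (43.2 to 137 CPM in tumours and 32.0 to 74.6 CPM in glands) had overlapping groups.

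**Figure D4:**
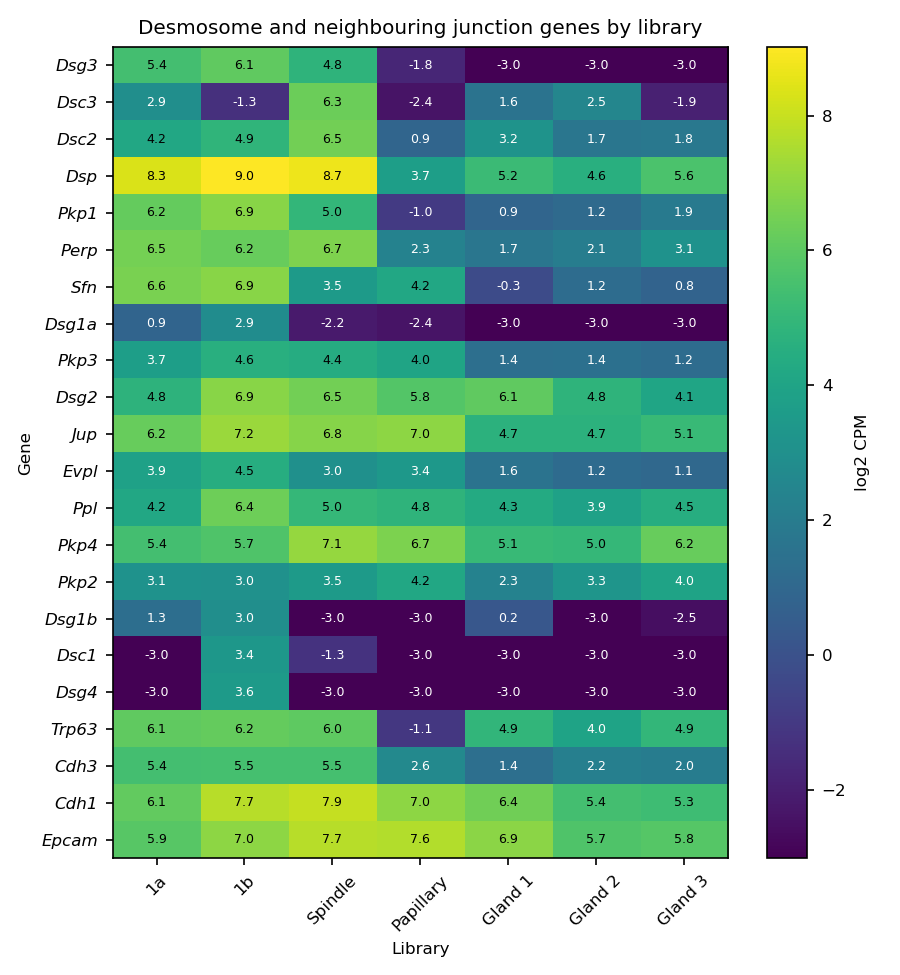
Log2 CPM of the 10 genes, of other desmosome genes and of 4 related genes (rows) in every library (columns), with the values printed. The papillary column is dark for Dsg3, Dsc3, Pkp1 and Trp63 and bright for Jup, Dsg2 and Epcam.

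Neighbouring junctions were read through 2 lists. Of 10 adherens junction genes, Cdh3 (P-cadherin, the cadherin of basal and myoepithelial cells) rose over all tumours and 9 did not pass. Cdh3 had 42.5, 44.6, 43.4 and 6.13 CPM in tumours 1a, 1b, spindle cell and papillary, against 2.48, 4.48 and 3.98 CPM in the glands (log2 3.19, SE 0.71, adjusted p = 0.0377, edgeR). Nectin4, an adhesion protein of the immunoglobulin family, averaged 17.0 ± 8.87 CPM in tumours and 3.63 ± 0.599 CPM in glands and did not pass (adjusted p = 0.0612, edgeR). In the adenosquamous comparison Cdh3 (log2 3.47, adjusted p = 0.0180, edgeR) and Nectin1 (log2 2.23, adjusted p = 0.0252, edgeR) rose. Of 6 hemidesmosome genes, which anchor cells to the basement membrane, Itgb4 rose over all tumours (108 ± 76.1 CPM in tumours and 12.6 ± 4.06 CPM in glands, log2 3.11, adjusted p = 0.0345, edgeR), while Dst, the next by p, had 349 ± 144 CPM in tumours and 1020 ± 354 CPM in glands (adjusted p = 0.0732, edgeR). Itgb4 and Col17a1 rose in the adenosquamous tumours (log2 3.64, adjusted p = 0.0183, and log2 4.48, adjusted p = 0.0264, edgeR). Col17a1 shared the papillary low of Pkp1, with 0.209 CPM there, 89.7 CPM in the spindle cell tumour and 2.48 to 11.6 CPM in the glands.

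Of the 6 other 14-3-3 genes, Ywhaz rose (266 ± 16.8 CPM in tumours and 121 ± 6.17 CPM in glands, log2 1.13, adjusted p = 0.0292, edgeR), and Ywhab had 75.8 ± 8.05 CPM in tumours and 157 ± 39.9 CPM in glands and did not pass (adjusted p = 0.0501, edgeR). In the adenosquamous comparison 0 of these 6 passed in edgeR (4 at unadjusted p under 0.05). Of 5 relatives of Perp in the PMP22 family, 0 passed over all tumours in edgeR (1 at unadjusted p under 0.05, Pmp22, with 11.7 ± 4.75 CPM in tumours and 69.6 ± 53.8 CPM in glands). Emp3 had 6.26 ± 6.39 CPM in tumours and 1.82 ± 0.967 CPM in glands (adjusted p = 0.326, edgeR). Emp1 (log2 2.05, adjusted p = 0.0275, edgeR) and Emp3 (log2 2.48, adjusted p = 0.0468, edgeR) rose in the adenosquamous tumours.

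Among 12 epithelial regulators, 11 were tested over all tumours, of which Ovol1, a zinc finger factor of epidermal differentiation, rose (log2 5.09, adjusted p = 0.0245, edgeR) and 10 did not pass. Klf5, the next by p, had 19.4 ± 9.19 CPM in tumours and 3.84 ± 1.92 CPM in glands (adjusted p = 0.0507, edgeR). In the adenosquamous tumours Ovol1 (log2 5.18, adjusted p = 0.0404), Klf5 (log2 2.32, adjusted p = 0.0476) and Trp73 (log2 4.66, adjusted p = 0.0417) rose (edgeR). Ovol1 and Trp73 averaged 0.0631 and 0.116 CPM in glands, under the filter's limit of 1.25 CPM. Both were tested only through the tumours, and their fold changes rest on glands near 0. Trp63, which encodes p63, the master regulator of stratified epithelium and of the basal layer, had 67.2 and 71.6 CPM in tumours 1a and 1b, 64.1 CPM in the spindle cell tumour and 0.348 CPM in the papillary tumour, against 29.7, 15.4 and 30.6 CPM in the glands. Over the 7 libraries the log2 CPM of Trp63 had a Pearson r of 0.79 with Pkp1, 0.78 with Dsp, 0.73 with Dsc2, 0.60 with Perp and 0.52 with Dsg3, but 0.12 with Sfn, 0.05 with Dsg2 and -0.01 with Pkp3. These are descriptions over 7 libraries that fall into few tissue types. With the mean log2 CPM of the epithelial markers, r was 0.84 for Pkp3, 0.65 for Dsg2 and 0.59 for Sfn, and 0.12 for Pkp1.

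Of the mesenchymal regulators, which include repressors of epithelial junction genes, 4 were tested over all tumours and 0 passed in edgeR (1 at unadjusted p under 0.05, Zeb1, with 21 ± 24.5 CPM in tumours and 127 ± 44.6 CPM in glands). Zeb2 had 90.9 ± 83.6 CPM in tumours and 198 ± 57.3 CPM in glands. Snai1 rose in the adenosquamous tumours (6.47 ± 1.45 CPM, against 0.458 ± 0.414 CPM in glands, log2 3.47, adjusted p = 0.0452, edgeR). Of the proteases of desmosomal cadherins and their inhibitor, 3 were tested over all tumours and 0 passed in edgeR (1 at unadjusted p under 0.05). That was Spink5, the inhibitor, with 6.83 ± 9.71 CPM in tumours and 0.305 ± 0.316 CPM in glands (adjusted p = 0.156, edgeR). Adam10, a membrane protease, had 115 ± 35.9 CPM in tumours and 86.9 ± 22.9 CPM in glands (adjusted p = 0.432, edgeR). Klk8 rose in the adenosquamous tumours (log2 3.94, adjusted p = 0.0478, edgeR), and glands averaged 0.421 CPM. Snai1 and Klk8 lay under the filter's limit of 1.25 CPM in glands and were tested only through the tumours. Klk7, a protease that sheds cornified cells, had 41.6 CPM in tumour 1b, the library with Dsg4 and Dsc1, and 0.0851 CPM in tumour 1a.

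Markers of basal and myoepithelial cells moved with part of the group, and their part in these differences was not tested. The summed level of the 7 markers was 1680 and 728 CPM in tumours 1a and 1b, 399 CPM in the spindle cell tumour and 96.9 CPM in the papillary tumour, against 112 to 353 CPM in the glands. In gland 1, 2 of the 7 were at 0. Krt14 rose over all tumours (log2 5.91, adjusted p = 0.0407, edgeR), as did Krt8, a keratin of simple epithelium (log2 2.22, adjusted p = 0.0343, edgeR), the only one of the 12 epithelial markers to pass. In the adenosquamous tumours Krt5, Krt14 and Krt17 rose and the smooth muscle myosin Myh11 and the oxytocin receptor Oxtr fell. Krt5 had 389, 138 and 90.1 CPM in tumours 1a, 1b and spindle cell and 0.348 CPM in the papillary tumour, against 1.77 to 10.1 CPM in the glands. The 3 markers listed for cardiac muscle, another tissue with desmosomes, summed to 1.08 to 6.47 CPM in tumours and 0.851 to 186 CPM in glands. Actn2 averaged 102 CPM in the glands, Myh6 8.52 CPM and Tnni3 0.541 CPM. The sum was 146 and 186 CPM in glands 1 and 3, where the skeletal muscle markers summed to 12800 and 24800 CPM. In gland 2 these sums were 0.851 and 19.5 CPM, so the 2 kinds of muscle cannot be told apart here.

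The genes were also set against the epithelial markers of the same library, leaving out Dsg1a and Dsg3, which had no count in glands. The mean log2 CPM minus that of the 12 markers differed between adenosquamous tumours and glands by 4.99 for Sfn, 4.03 for Pkp1, 2.89 for Perp, 2.38 for Dsp, 1.62 for Pkp3 and 1.14 for Dsc2, and by -0.35 for Dsg2 and -1.10 for Dsc3. Over all 4 tumours the same difference was 3.07 for Sfn, 1.49 for Perp, 1.28 for Pkp1, 1.18 for Pkp3, 0.68 for Dsp, 0.23 for Dsc2, -0.66 for Dsg2 and -0.99 for Dsc3. When the libraries were scaled to these markers and refitted, 5 of the 10 genes passed in the adenosquamous comparison. Dsp (adjusted p = 0.099, edgeR) and Pkp3 (adjusted p = 0.346, edgeR) did not. That scaling shifts the median of all genes tested in this comparison to -0.89. The share of all genes passing in that fit is not given, so the count is a description only.

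**Figure D5:**
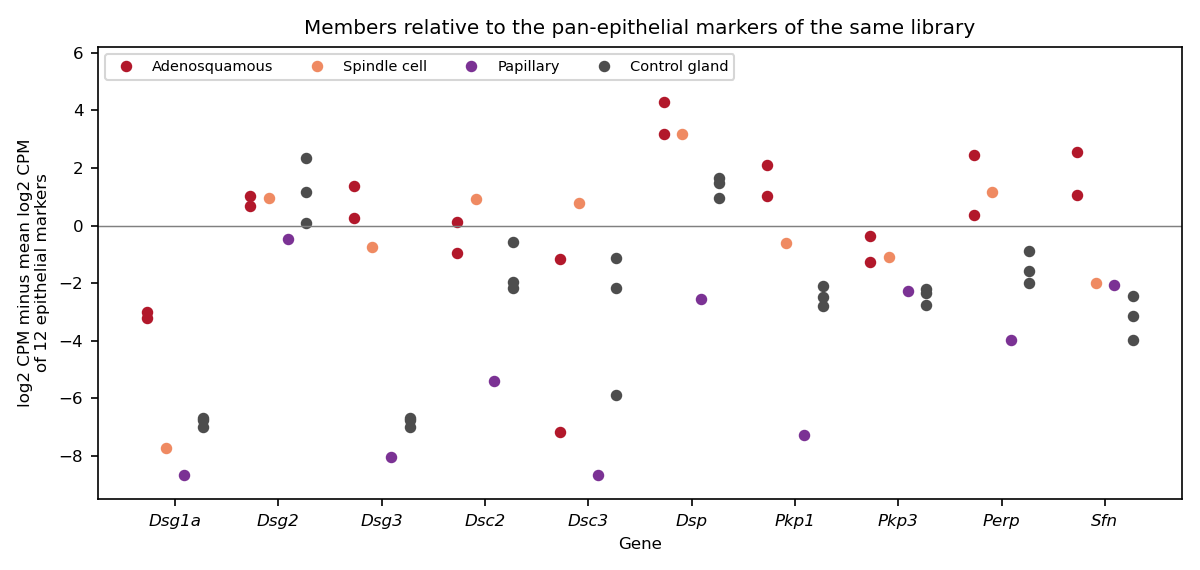
Log2 CPM of each gene minus the mean log2 CPM of 12 epithelial markers in the same library (points, by group). For Dsp, Pkp1, Perp and Dsc2 the papillary tumour lies below the glands on this scale, and for Sfn all 4 tumours lie above them.

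Among themselves the genes formed close and loose pairs over the 7 libraries. Pearson r of log2 CPM was 0.98 for Dsp with Pkp1, 0.97 for Dsg3 with Perp, 0.91 for Dsc2 with Dsp, 0.88 for Dsg1a with Sfn and 0.87 for Pkp3 with Sfn. Dsc3 was at most at 0.66 (with Dsc2) and Dsg2 at most at 0.63 (with Pkp3). Of 7560 other genes with a mean log2 CPM of at least 3, the 10 whose pattern was most like the mean of the group included Manba (r = 0.99), Trim8 (0.988), Pdia3 (0.982), Osbpl3 (0.981), Cep128 (0.981), Cdh3 (0.977), Myo10 (0.976), Hnrnpm (0.97) and Supt16 (0.97), each over 7 libraries. Of the genes named here, only Cdh3 is a junction gene of the lists used here. Osbpl3, for example, had 42.6, 42.7, 38.2 and 10.4 CPM in tumours 1a, 1b, spindle cell and papillary, against 13.4, 11.1 and 13.8 CPM in the glands.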

How the data were processed

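Total RNA of 4 ECD transgenic mammary tumours and 3 control glands was made into TruSeq v2 libraries, which do not mark strand, and read as paired 75-base ends, per the labels' protocols. STAR 2.5, RSEM 1.3, limma and the build GRCm38 are listed in the submitters' processing notes. The deposited value column is headed TPM, but its sums differ between libraries, so its values were taken to be expected counts made by the authors, and were rounded.

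Tests used edgeR 4.0.16 (quasi-likelihood F test, TMM scaling, filterByExpr with a minimum count of 10 and total of 15, Benjamini-Hochberg threshold 0.05, two-sided) over the whole table, in R 4.3.3. CPM used the TMM-scaled library sizes of the 7-library fit, and log2 CPM a prior count of 2. Lengths, positions and transcripts came from GENCODE M21 on GRCm38. The count tests were tested on simulated data. Alternatives were DESeq2 1.42.0, limma-voom (limma 3.58.1), other scalings, filters and designs, and leaving out each library; a depth class covariate was added after the data were seen.

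The 10 genes and the 18 lists were chosen with earlier results of these data known. Of each list other than the cell type markers, the 2 genes with the smallest p over all tumours and any that passed were named. Other named genes are markers or were chosen for their values. Krt7, Sprr1b, Col1a1, Cd68 and S100a8, markers not named elsewhere, also rose in the adenosquamous tumours (adjusted p = 0.0396, 0.0267, 0.0267, 0.0261 and 0.0201, edgeR). Of the 6 fat cell markers, 4 fell there. No label says that libraries came from separate animals beyond calling them independent, so p-values measure only the spread between these samples. Intervals cover counting error only. Reads of genes that overlap on opposite strands cannot be separated. 1 gene of the likeness ranking is not reported here.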

Additional observations from a re-analysis of the deposited data

Results flagged for a closer look

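Dsg3, Dsp and Perp had a papillary value far from the other 3 tumours. On log2 CPM, the gap between the papillary tumour and its nearest neighbour took 0.833 of the range of the 4 tumours for Dsg3, 0.872 for Dsp and 0.887 for Perp, above Dixon's 95% critical value for 4 values. Each of the 10 genes was checked at its lowest and its highest tumour, 20 checks in all. Chance flags about 1 in 20 sets of 4 values. The papillary tumour had 0.174 CPM of Dsg3, 13.3 CPM of Dsp and 4.88 CPM of Perp. It was also the only tumour with over 20000000 counts and had 0.348 CPM of Trp63; the part of either in these values was not tested.

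For Dsc2, Dsp and Pkp1 the tumour types moved in opposite directions: both adenosquamous tumours were above every gland and the papillary tumour was below every gland, as was so for 3.12% of all genes tested. The papillary tumour differed from the mean of the glands by -1.33 for Dsc2, -1.39 for Dsp and -2.30 for Pkp1 on the log2 CPM scale. This difference between tumour types was not tested, since the papillary tumour is a single library.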

How the results depend on the processing

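Over all tumours, 2 of the 10 genes were higher in the main edgeR test, 7 with DESeq2 or 1 fit of the 4 groups, 1 with limma-voom, and 0 to 7 when 1 library was left out (0 without control gland 3, 7 without the papillary tumour). All genes passing numbered 1199, against 3403 with DESeq2, 2561 in the 4-group fit and 97 to 1351 without 1 library. In the adenosquamous comparison, 7 were higher, 0 with a depth covariate and 0 to 7 without 1 library; genes passing numbered 1526, against 3562 with DESeq2, 2521 with no filter, 0 with the depth covariate and 0 to 1498 without 1 library. Between tumour types, 0 were higher, 2 with DESeq2, 4 with no filter (1 lower) and 1 in the 4-group fit; genes passing numbered 0, against 1385, 2472 and 65 in these, and 178 when scaled to epithelial markers. A single adenosquamous library was assumed to vary like the glands.

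Signs turned only for differences that did not pass. Over all tumours, Dsc3 was -0.25 (log2) with limma-voom, -0.46 with the depth covariate and -0.11 to 4.26 without 1 library, and Dsg2 was -0.81 when scaled to epithelial markers. In the adenosquamous comparison, Dsg2 was -0.59 by that scaling, -0.06 with the depth covariate and -0.49 to 1.64 without 1 library, and Dsc3 was 0 by that scaling and -3.41 to 1.72 without 1 library. Between tumour types, Dsg2 was -0.35 with limma-voom, -0.01 with upper-quartile scaling, -0.05 with no filter, -0.27 with the depth covariate and -1.42 to 0.72 without 1 library. Dsc2 was 1.39 with limma-voom, 0.94 in the 4-group fit and -1.84 to 3.70 without 1 library, and Dsc3 was 1.3, 0.67 and -7.08 to 5.59. Pkp3 was 0.83 by epithelial scaling, 0.01 with the stricter filter and -0.52 to 0.37 without 1 library. Perp was -0.29 with the depth covariate and -0.30 to 4.02 without 1 library. The cause was not tested.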
